A study of Mus musculus with 14 samples.

Results

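Extracellular matrix turnover in the heart depends on a small set of secreted and membrane-bound enzymes, and the 48 mouse genes described here encode those whose names mark them as matrix proteases, protease inhibitors or crosslinkers. They were chosen by name alone, as protein-coding genes on chromosomes 1 to 19 whose mm10 symbol is Mmp, Timp or Adamts with a number, or Lox or Loxl with or without one. Of 20665 protein-coding genes on these chromosomes, 21 were Mmp genes, 3 Timp genes, 19 Adamts genes and 5 lysyl oxidase genes. Matrix metalloproteinases (MMPs) are zinc enzymes, most of them secreted as inactive precursors, that cleave collagens, laminin, fibronectin and other matrix proteins, and tissue inhibitors of metalloproteinases (TIMPs) bind and block them. ADAMTS proteases are secreted relatives with thrombospondin repeats, and they process procollagens, cut proteoglycans such as aggrecan and versican, or cleave von Willebrand factor. Lysyl oxidases oxidise lysine side chains in collagen and elastin so that the fibres crosslink.

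The series used chromatin immunoprecipitation with sequencing in cardiomyocyte-enriched cell populations of C57BL/6J mice. One condition was transverse aortic constriction (TAC) for 1 week, a surgical narrowing of the aorta that loads the left ventricle with pressure, and the other was sham surgery, whose libraries the labels list as untreated. For each condition, 2 biological replicates were profiled with an antibody to G9a, 2 with an antibody to H3K9me2 and 2 with an antibody to H3K27me3, beside 1 input library that was not used here. G9a is the histone methyltransferase that places H3K9me2, a mark of repressed chromatin, and H3K27me3 is the mark that Polycomb complexes place on repressed genes. Sex, age and the number of animals per library are not given in the labels. The question, as the title of the series states it, is how the enzyme and the marks are distributed in cardiac hypertrophy.

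For each antibody the authors deposited a table of differential regions, and each region comes with 4 whole numbers, 1 per library, in pairs. The tables do not name the pairs, so they are called the second pair and the first pair, and which one is TAC cannot be told from the sources used here. Every p-value printed beside a region without further words is the authors' own, from their deposited table, and so are the 4 values. Log2 differences were taken between the means of the pairs after adding 1, second over first, so a positive one means higher in the second pair. A region is called a second-pair region or a first-pair region after the pair with the higher mean, and its pairs are called separated when both values of the higher pair exceed both of the other, as they did in 61.3% of all G9a, 67.9% of all H3K9me2 and 69.2% of all H3K27me3 regions. The strongest region of a gene is the one with its smallest deposited p. A gene was searched over its annotated body plus 2500 bp on either side. Only regions that the authors had selected as differential are listed, so a gene without a region may carry any steady level of the enzyme or mark, and genes that hold more signal can enter a table more readily.

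Of 1186054 regions on nuclear chromosomes, 388424 were listed for G9a, 245088 for H3K9me2 and 552542 for H3K27me3. The windows of the 48 genes held 613, 308 and 804 of them. One library stood apart: library 1 of the second pair for G9a was at 0 in 9.34% of all regions and in 47 of the 613 regions of these genes, while the other 3 G9a libraries were at 0 in at most 0.979% of the 613. Its part in the G9a results was not tested beyond the values given without it. With 2 libraries against 2, the smallest two-sided p that an exact permutation test of 1 region can give is 0.333. A model over all regions of a table (limma, on log2 of value plus 1) called 0 regions at these genes after Benjamini-Hochberg adjustment, with smallest adjusted p of 0.471 for G9a, 0.383 for H3K9me2 and 0.176 for H3K27me3. Over all regions limma called 0% for G9a and H3K27me3 and 0.000408% for H3K9me2, which is 1 region, higher in the second pair and at no member. At an unadjusted limma p of 0.05, it listed 44 G9a, 33 H3K9me2 and 157 H3K27me3 regions at these genes, where the shares over all regions were 6.7%, 11.8% and 18.8%. The differences below are therefore those the authors' deposited p selected, and none of them passed a test that measures the spread between replicates.

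The labelled cell type could be checked only against where differential regions lie. None of 10 cardiomyocyte markers, among them Myh6 and Tnnt2, had an H3K27me3 region in either direction. Second-pair H3K27me3 regions lay at 8 of 8 fibroblast, 8 of 8 endothelial, 6 of 7 smooth muscle and pericyte and 7 of 8 leukocyte markers, and first-pair ones at 6, 7, 6 and 5 of them. Of all genes, 52.1% had a second-pair and 60.3% a first-pair H3K27me3 region. Second-pair G9a regions lay at 3 of 10 cardiomyocyte, 7 of 8 fibroblast and 8 of 8 endothelial markers, beside 58.5% of all genes. They also lay at 7 of 7 smooth muscle and pericyte and 7 of 8 leukocyte markers. First-pair G9a regions lay at 5, 6, 8, 6 and 6 markers of these sets in the same order, beside 80.8%. Second-pair H3K9me2 regions lay at 2 of 10 cardiomyocyte and 5 of 8 fibroblast markers, beside 40.6% of all genes. They also lay at 6 of 8 endothelial, 4 of 7 smooth muscle and pericyte and 5 of 8 leukocyte markers. First-pair H3K9me2 regions lay at 1, 5, 8, 4 and 5 markers of these sets in the same order, beside 50.7%. In enriched populations, a different share of other cells and a different amount of enzyme or mark per cell cannot be told apart, and the part of cell mixture in the results below was not tested.

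Nearly all of the matrix-remodelling genes appeared in the tables. A G9a region of either direction lay at 47 genes, beside 88.2% of all genes, an H3K9me2 region at 37, beside 60.8%, and an H3K27me3 region at 42, beside 68.9%. Second-pair G9a regions lay at 37 of 48 genes (77.1%), where 58.5% of all genes had one, and first-pair G9a regions at 43 of 48 (89.6%), where 80.8% of all genes did. H3K9me2 gave 29 genes (60.4%) with a second-pair region beside 40.6% of all genes, and 31 genes (64.6%) with a first-pair region beside 50.7%. H3K27me3 gave 36 genes (75.0%) with a second-pair region beside 52.1%, and 40 genes (83.3%) with a first-pair region beside 60.3%. The members were longer than other genes, with a median body of 24394 bp against 17491 bp over all genes, and a longer window holds more regions, so these counts alone do not set them apart. The 11 members with windows over 100 kb held 52.9% of the G9a, 80.5% of the H3K9me2 and 62.7% of the H3K27me3 regions. With separated pairs, second-pair G9a regions lay at 33 members beside 42.8% of all genes and first-pair ones at 36 beside 65.8%. For H3K9me2 these counts were 24 beside 33.4% and 23 beside 43.3%, and for H3K27me3 36 beside 48.6% and 36 beside 53.1%. Without library 1 of the second pair, the G9a counts of any listed region were 42 genes with a second-pair region and 40 with a first-pair region. The shares of all genes were not counted under that omission, so these counts do not set the members apart.

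Per length of sequence, the members exceeded all genes most in second-pair G9a and H3K27me3 regions. Second-pair G9a regions stood at 9.06 per 100 kb of the members' windows and at 6.50 per 100 kb of all gene windows, while first-pair G9a regions stood at 8.74 and 8.78. For H3K27me3 the second-pair density was 12.8 per 100 kb at the members and 8.56 at all genes, and the first-pair density was 10.5 and 9.36. Of the 442 second-pair H3K27me3 regions, 78 lay at Adamts12, 51 at Adamts18, 48 at Adamts17 and 36 at Adamts16. These long genes thus weigh heavily in that density. By family it was 13.4 for Adamts, 12.9 for Mmp, 12.6 for lysyl oxidase and 3.17 for Timp genes. For H3K9me2 the density was 4.01 against 3.23 for second-pair regions and 4.94 against 4.4 for first-pair regions. Of the G9a regions at the members 50.9% were higher in the second pair, against 42.5% at all genes, and of the H3K27me3 regions 55.0%, against 47.8%. The H3K9me2 share was 44.8%, against 42.4% at all genes. The size of the differences was like that of other genes: the median log2 difference of second-pair regions was 1.04 for G9a, 0.94 for H3K9me2 and 0.80 for H3K27me3 at the members, and 1.02, 0.98 and 0.82 at all genes.

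By gene, second-pair G9a regions outnumbered first-pair ones at 23 of the 48 genes, and the reverse held at 21, with 4 equal. Over all genes these shares were 25.8% and 55%. For H3K27me3, 24 members had more second-pair and 17 more first-pair regions, where all genes gave 30% and 32.4%. For H3K9me2, 12 members had more second-pair and 20 more first-pair regions, where all genes gave 16.9% and 35.9%. Without library 1 of the second pair, the numbers were 28 and 16 genes for G9a, where 32.2% and 46.2% of all genes fell on each side, and 21 and 20 genes for H3K27me3, where 27.9% and 34.2% did. No test of these shares was made, since long and short genes differ in how many regions they can hold. Both G9a and H3K27me3 leaned to the second pair at 18 members and both to the first pair at 12, while they leaned opposite ways at 5 and 4. In all 3 tables at once, 34 members had a region. The same counts across tables were not made over all genes, so they do not set the members apart. Mmp15 and Loxl2 had only first-pair G9a regions, and Adamts1, which encodes a versican-cleaving protease, was the 1 member with none in any table.

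**Figure D1:**
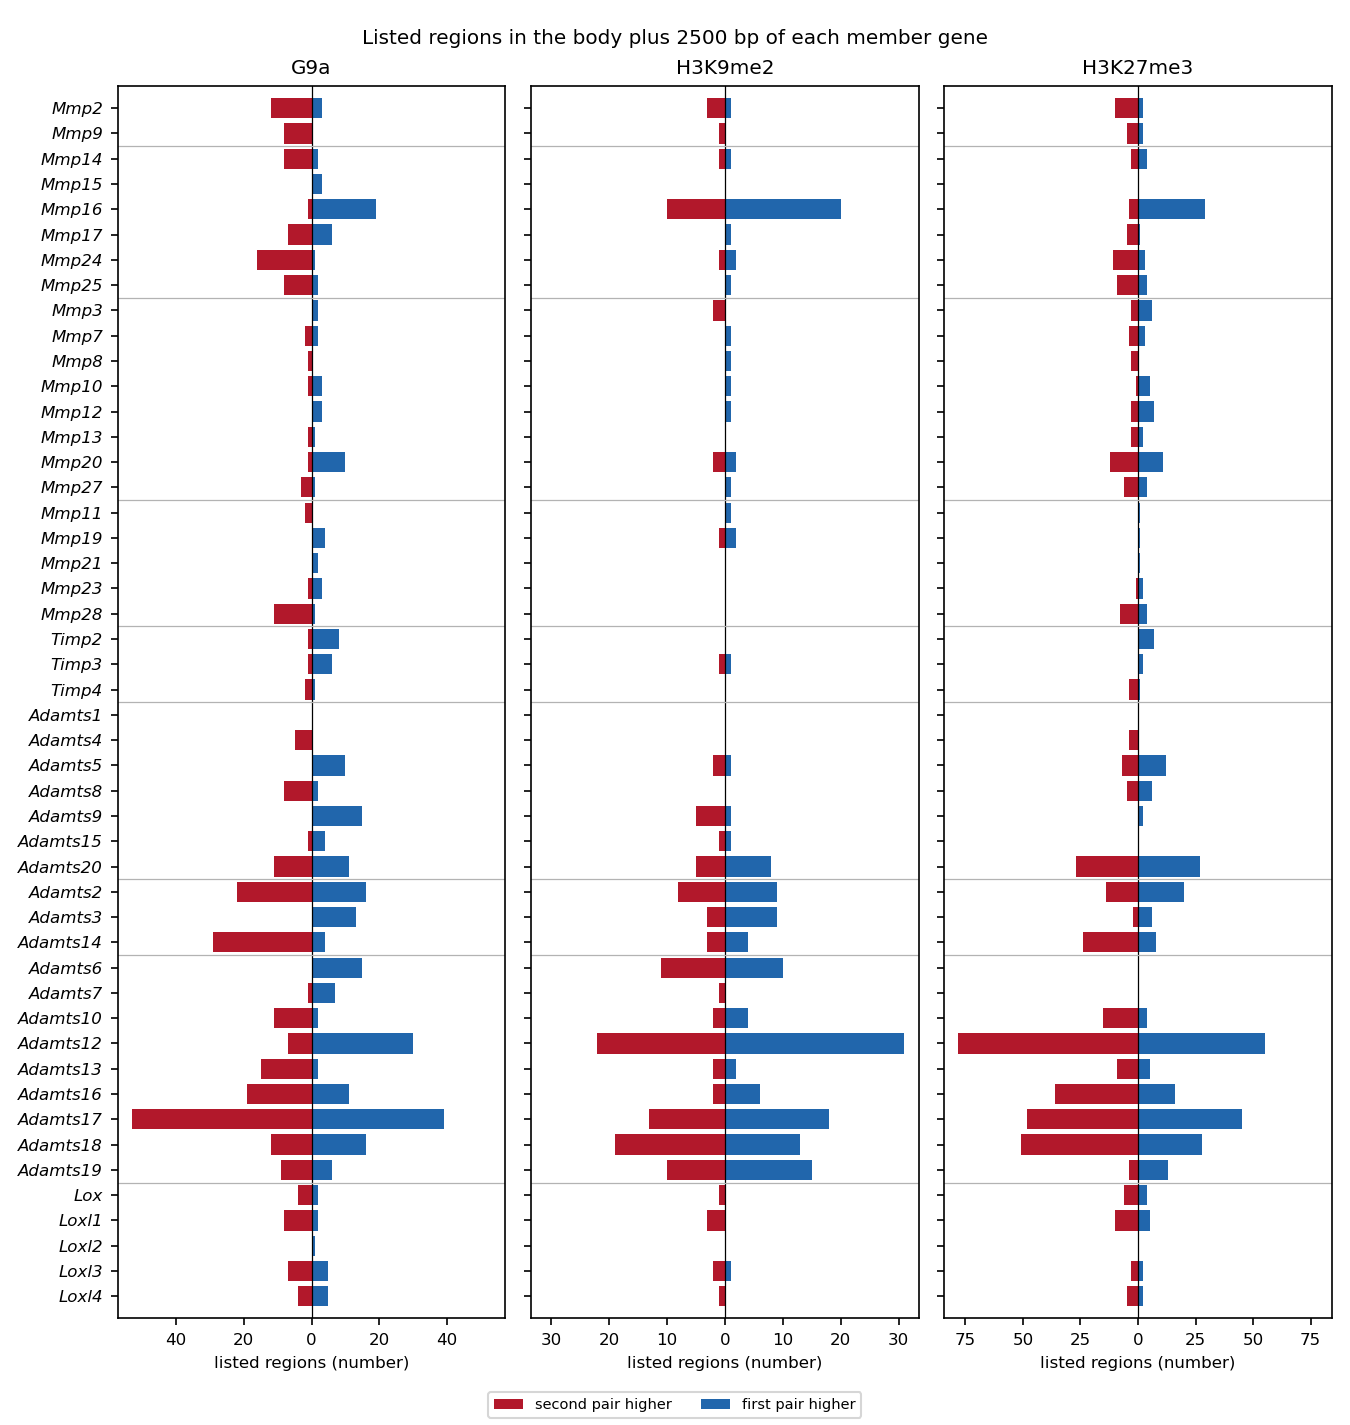
Number of listed regions in the body plus 2500 bp of each of the 48 genes, grouped by role from gelatinases at the top to lysyl oxidases at the bottom; red bars to the left count regions higher in the second pair and blue bars to the right those higher in the first pair, in 1 panel per antibody with its own horizontal scale. Mmp9, Adamts4 and Adamts14 lean to the left for G9a and H3K27me3, while Mmp16, Timp2 and Adamts3 lean to the right.

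The gelatinases Mmp2 and Mmp9 degrade denatured collagen and the type IV collagen of basement membranes, and both leaned to the second pair for all 3 antibodies. They held 20 second-pair and 3 first-pair G9a regions, 4 and 1 for H3K9me2, and 15 and 4 for H3K27me3. Of the 20 second-pair G9a regions, 16 had separated pairs, and none of the 3 first-pair ones did. At Mmp9 the G9a region chr2:164953201-164960300, which runs past the upper end of the gene body, held 1995 and 1839 in the second pair, against 445 and 964 in the first pair. Both second-pair libraries were higher than both of the first pair, with a log2 difference of 1.44 and a deposited p of 1.21e-124, the smallest of any G9a region at these genes. It lay between 0.99 and 2.10 as each library was left out, and the limma difference was 1.55 with a standard error of 0.639. The H3K27me3 region chr2:164938751-164944150 spans the lower end of Mmp9 and held 3334 and 2930 in the second pair, against 1435 and 1612 in the first pair, a log2 difference of 1.04 (deposited p of 6.95e-123, limma standard error 0.197). This too was the smallest deposited p of its antibody here. Inside it lay the H3K9me2 region chr2:164941351-164941750, with 46 and 97 in the second pair, against 44 and 13 in the first pair, and a log2 difference of 1.30. The pairs barely separated there, and the difference ranged between 0.67 and 2.37 as each library was left out.

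At Mmp2 the G9a region chr8:92826701-92829300 covers the lower end of the gene. Its values were 740 and 794 in the second pair, against 183 and 281 in the first pair, with a log2 difference of 1.72 (deposited p of 5.63e-65, limma standard error 0.513). The surrounding H3K27me3 region chr8:92824051-92830400 held 3822 and 2901 in the second pair, against 1898 and 2081 in the first pair, a log2 difference of 0.76 (deposited p of 2.84e-77). In both tables the pairs were well apart, and the G9a difference was the larger on the log scale. The H3K9me2 region chr8:92832251-92832900 lies further into the body and held 116 and 112 in the second pair, against 30 and 71 in the first pair (log2 difference 1.16, between 0.68 and 1.89 as each library was left out). Enzyme and both marks were thus higher in the second pair at their strongest regions of both gelatinase genes, in the authors' tables.

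**Figure D2:**
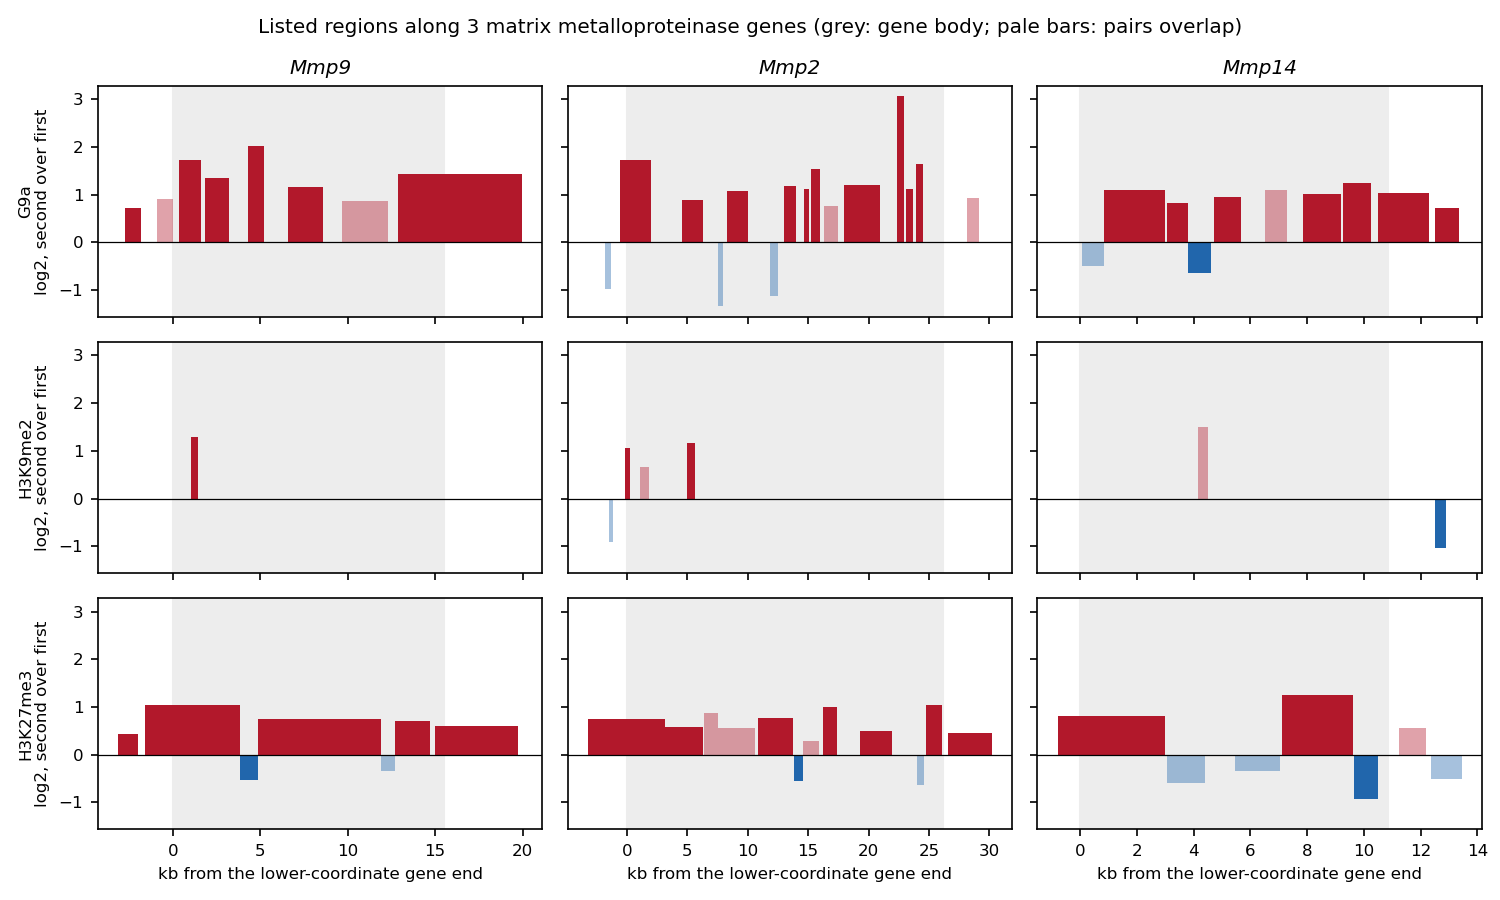
Listed regions along Mmp9, Mmp2 and Mmp14 for G9a, H3K9me2 and H3K27me3; the horizontal axis is distance in kb from the lower-coordinate end of the gene, the grey band is the gene body, each bar spans 1 region, and its height is the log2 difference of the second over the first pair. Pale bars mark regions whose pairs overlap; second-pair regions (red) cover most of Mmp9 and Mmp2 for G9a and H3K27me3, and at Mmp14 they alternate with first-pair regions (blue) for H3K27me3.

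The membrane-type MMPs Mmp14, Mmp15, Mmp16, Mmp17, Mmp24 and Mmp25 stay on the cell surface. Mmp14 is the activator of the Mmp2 precursor. The group split within itself: Mmp14, Mmp17, Mmp24 and Mmp25 had more second-pair than first-pair G9a regions, whereas Mmp16 had 1 against 19 and Mmp15 had 0 against 3. At Mmp14 the G9a region chr14:54432451-54434600 held 543 and 553 in the second pair, against 106 and 403 in the first pair. The second pair agreed closely and the first did not, so the log2 difference of 1.1 became 0.44 without library 1 of the first pair and 2.36 without library 2. The H3K27me3 region chr14:54430801-54434600 ends at the same base, begins before the gene and held 2465 and 2561 in the second pair, against 943 and 1919 in the first pair (log2 difference 0.81, deposited p of 2.02e-65, 0.39 without library 1 of the first pair and 1.41 without library 2). The value listed as library 1 of the first pair was thus the low one for both antibodies. The values carry no replicate number, so these need not be the same replicate. An H3K9me2 region at chr14:54435751-54436100 had overlapping pairs, with 34 and 99 in the second pair, against 42 and 4 in the first pair (log2 difference 1.49, between 0.54 and 3.75 as each library was left out).

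The H3K27me3 region at Mmp14 covers the 250 bases before its start. They are printed here as the promoter that this region overlaps, from the RefSeq table of assembly GRCm38.p6, 5′ to 3′ on the + strand, at chr14:54431348-54431597. Every promoter was searched for the AP-1 motif, TGAGTCA on either strand, which binds Fos and Jun proteins, and for a TATA motif, TATAAA on either strand. This promoter held neither, so no letter is in capitals.
Mmp14: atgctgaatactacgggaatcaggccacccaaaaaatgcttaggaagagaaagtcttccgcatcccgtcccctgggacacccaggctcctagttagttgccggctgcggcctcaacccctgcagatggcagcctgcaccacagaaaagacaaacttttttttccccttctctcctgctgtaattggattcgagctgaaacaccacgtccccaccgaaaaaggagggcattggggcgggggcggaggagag
The window of 300 bases from which it comes, 250 before to 50 after the start, held 10 CG pairs.

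At Mmp17, which encodes a membrane protease held by a lipid anchor, the G9a region chr5:129577101-129581950 reaches into the flank of the gene. It held 1420 and 1025 in the second pair, against 523 and 546 in the first pair, a log2 difference of 1.19 (deposited p of 1.46e-59). The H3K27me3 region chr5:129587201-129597150, within the body, held 4730 and 3660 in the second pair, against 2026 and 2609 in the first pair (log2 difference 0.86, deposited p of 6.06e-119). Its width of 9950 bp was the greatest among the second-pair H3K27me3 regions of these genes. Mmp16 went the other way. In H3K27me3 the region chr4:17857251-17858700 held 51 and 60 in the second pair, against 519 and 154 in the first pair, a log2 difference of -2.58 that was -1.46 without library 1 of the first pair and -3.20 without library 2. In H3K9me2 the region chr4:18049051-18050000 held 69 and 22 in the second pair, against 156 and 256 in the first pair, a log2 difference of -2.15 that was -3.17 without library 1 of the second pair and -1.56 without library 2. Mmp16 has a body of 264408 bp and carried 29 first-pair and 4 second-pair H3K27me3 regions and 20 and 10 for H3K9me2. The membrane-type group's 12 second-pair and 25 first-pair H3K9me2 regions were mostly those of Mmp16.

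A run of 8 Mmp genes, the stromelysins Mmp3 and Mmp10, the collagenases Mmp8 and Mmp13, the macrophage elastase Mmp12, the matrilysin Mmp7, the enamel protease Mmp20 and Mmp27, lies within 427 kb of chromosome 9. For G9a the run held 8 second-pair and 22 first-pair regions, and for H3K9me2 4 and 7, whereas H3K27me3 gave 34 and 38 regions that alternate along the genes. With separated pairs there were 6 second-pair and 13 first-pair G9a regions. At Mmp3 the G9a region chr9:7457551-7458200, in the flank, held 27 and 4 in the second pair, against 205 and 97 in the first pair (log2 difference -3.20, deposited p of 4.14e-28, -4.93 without library 1 of the second pair and -2.44 without library 2). An H3K27me3 region over this Mmp3 region was higher in the first pair too, with overlapping pairs of 104 and 81 in the second pair, against 262 and 72 in the first pair (log2 difference -0.85). Next to it, the H3K27me3 region of Mmp3 with the smallest deposited p, chr9:7456101-7457000, ran the other way, with 192 and 205 in the second pair, against 111 and 56 in the first pair and a log2 difference of 1.24. In the body of Mmp3 the H3K9me2 region chr9:7446651-7447300 had overlapping pairs, with 142 and 73 in the second pair, against 23 and 74 in the first pair (log2 difference 1.13, between 0.53 and 2.18 as each library was left out).

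Mmp8, the neutrophil collagenase, had its strongest H3K9me2 region at chr9:7565001-7565700, with 10 and 56 in the second pair, against 207 and 98 in the first pair. Its pairs were separated and the log2 difference was -2.17, between -3.80 and -1.43 with either second-pair library left out. The H3K27me3 region of Mmp8 with the smallest deposited p, 1.61e-29, ran the other way, with 455 and 288 in the second pair, against 116 and 126 in the first pair. Mmp8 and Mmp27 stand so close that 1 G9a region and 1 H3K27me3 region lie in the windows of both. The shared G9a region chr9:7569301-7569850 held 94 and 93 in the second pair for Mmp8 and Mmp27, against 2 and 79 in the first pair. At Mmp20 the G9a region with the smallest deposited p, 5.17e-26, held 0 and 26 in the second pair, against 189 and 85 in the first pair, and Mmp20 had 1 second-pair and 10 first-pair G9a regions.

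**Figure D3:**
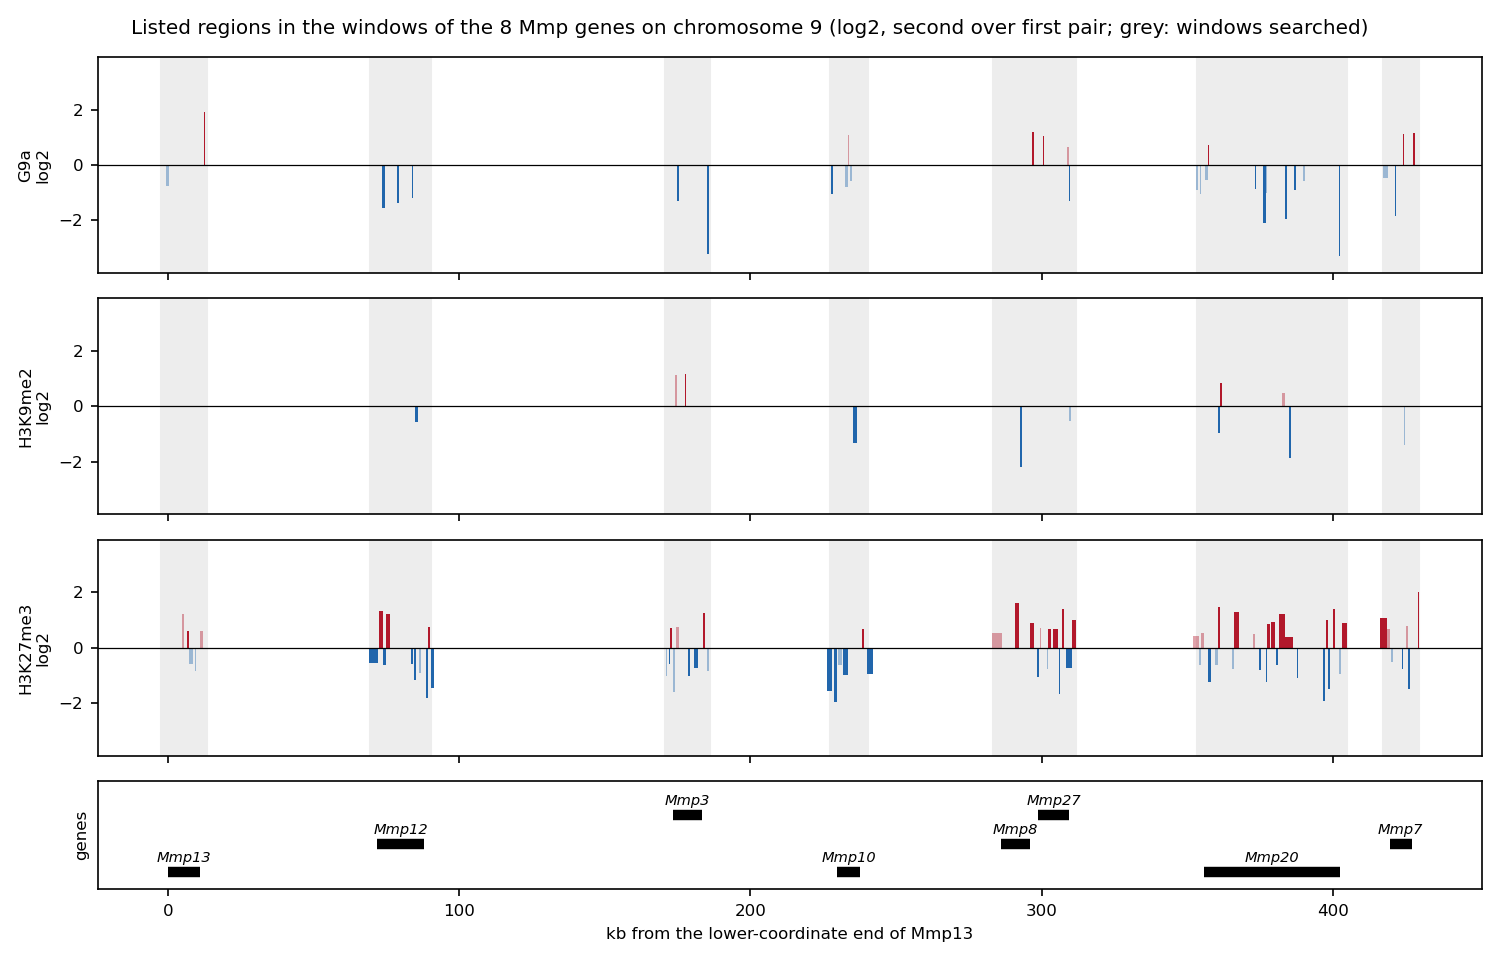
Listed regions in the windows of the 8 Mmp genes of chromosome 9, for G9a, H3K9me2 and H3K27me3, with the gene bodies in the lowest panel; the horizontal axis is distance in kb from the lower-coordinate end of Mmp13 and the bars give the log2 difference of the second over the first pair, pale where the pairs overlap. Grey bands are the windows searched; for G9a there are 8 second-pair regions (red) and 22 first-pair regions (blue), and both alternate for H3K27me3.

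The promoters of this run differ in letters from those of the other members. RefSeq promoter windows of GRCm38.p6, 300 bases each, were at hand for 30 members in 33 windows, 10 of them for the 8 genes of the run. Those 10 held 0 to 7 CG pairs with a median of 1.5, and the 23 windows of other members held 2 to 44 with a median of 22. The AP-1 motif stood in windows of 5 genes of the run and in none of the other members, 5 of 33 member windows (15.2%) in all, where 5.20% of 32851 windows of the whole table hold it. TATA stood in windows of 7 genes of the run and in 2 other windows, 9 of 33 (27.3%) in all, beside 13.6% of all windows. No AP-1 match overlaps a TATA match in the windows printed here, and a match is a description of the letters only. H3K27me3 regions touched the promoter windows of the run in both directions, 4 with a second-pair and 5 with a first-pair region, while the other members had 11 and 3. Over all members, 15 of 33 windows (45.5%) had a second-pair and 8 (24.2%) a first-pair H3K27me3 region, where 25.5% and 8.26% of all promoter windows did. G9a second-pair regions touched 8 of 33 windows (24.2%), all outside the run, beside 14.3% of all windows, and first-pair ones 3 beside 8.37%. Among these G9a regions, the pairs were separated only at Mmp23 and Timp2. They overlapped at Adamts13, Timp4, Adamts18, Adamts20 and Mmp25, and in the first-pair regions at Mmp13, Mmp28 and Adamts12. The windows of Mmp23 share the same G9a and H3K27me3 regions, and those of Mmp7 share a second-pair H3K27me3 region, so these regions count more than once. H3K9me2 touched 0 windows with second-pair regions, beside 2.62%, and 2 with first-pair regions, beside 3.46%.

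The promoters of 3 genes of the run are printed because a listed region touches each of them and each holds both motifs before its start; they were chosen after their values were seen. Each line gives the 250 bases before the start, 5′ to 3′ on the + strand, with AP-1 and TATA matches in capitals. They lie at chr9:7502092-7502341 for Mmp10, chr9:7691840-7692089 for Mmp7 and chr9:7272264-7272513 for Mmp13.
Mmp10: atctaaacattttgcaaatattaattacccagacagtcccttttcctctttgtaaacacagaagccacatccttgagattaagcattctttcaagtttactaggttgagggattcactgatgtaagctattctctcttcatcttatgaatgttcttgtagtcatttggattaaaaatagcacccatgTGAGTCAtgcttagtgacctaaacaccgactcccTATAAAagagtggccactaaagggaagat
Mmp7: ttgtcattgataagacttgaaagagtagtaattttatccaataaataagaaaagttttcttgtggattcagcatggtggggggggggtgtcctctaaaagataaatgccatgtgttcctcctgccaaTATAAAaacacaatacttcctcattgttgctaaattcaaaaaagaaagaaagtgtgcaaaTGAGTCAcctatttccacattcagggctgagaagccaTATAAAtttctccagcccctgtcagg
Mmp13: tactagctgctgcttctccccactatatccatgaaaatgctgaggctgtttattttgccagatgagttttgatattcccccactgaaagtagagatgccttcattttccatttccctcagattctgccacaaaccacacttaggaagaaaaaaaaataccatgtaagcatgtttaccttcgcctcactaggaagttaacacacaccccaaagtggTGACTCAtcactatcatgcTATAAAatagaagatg
Counted back from the start, the AP-1 match begins at base -63 in Mmp10 and Mmp7 and at -35 in Mmp13, and the TATA match nearest the start begins at -29, -26 and -16. The H3K27me3 region that reaches the far end of the printed Mmp10 promoter held 66 and 37 in the second pair, against 157 and 250 in the first pair, a log2 difference of -1.96 with separated pairs. At Mmp7 the H3K27me3 region had overlapping pairs, with 435 and 116 in the second pair, against 233 and 112 in the first pair (log2 difference 0.67). At Mmp13 the region was one of G9a, also with overlapping pairs, with 27 and 165 in the second pair, against 186 and 138 in the first pair (log2 difference -0.75).

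Among the other MMP genes, Mmp11, Mmp19, Mmp21, Mmp23 and Mmp28, G9a gave 14 second-pair and 10 first-pair regions and H3K27me3 gave 9 and 9. Most of the second-pair ones lay at Mmp28, the epilysin gene, with 11 for G9a and 8 for H3K27me3, against 1 and 4 first-pair regions. Mmp11, which encodes stromelysin-3, an enzyme described in remodelling stroma, had a single H3K27me3 region, chr10:75926551-75927300. This region was among the strongest first-pair ones of the members. It held 28 and 6 in the second pair, against 144 and 208 in the first pair, a log2 difference of -3.30 (deposited p of 2.47e-33, -4.66 without library 1 of the second pair and -2.61 without library 2). G9a leaned the other way at Mmp11, with 2 second-pair regions and no first-pair one.

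By count, the inhibitors Timp2, Timp3 and Timp4 leaned to the first pair for G9a, with 4 second-pair and 15 first-pair regions. For H3K27me3 they had 4 and 10. Pairs were separated in 2 and 6 of these G9a regions and in 3 and 7 of the H3K27me3 regions. At all genes, 57.5% of G9a and 52.2% of H3K27me3 regions were first-pair ones. Summed over the inhibitors, the G9a values were 863 and 2373 in the second pair, against 1651 and 2671 in the first pair. These sums overlapped, and library 1 of the second pair was the lowest. H3K9me2 was nearly absent from the inhibitors' lists, with 1 and 1, both at Timp3. The 3 genes did not move as one. Timp2, which inhibits Mmp2 and also takes part in its activation on the cell surface, had 1 second-pair and 8 first-pair G9a regions and 7 first-pair H3K27me3 regions. Its G9a region with the smallest deposited p was the exception, at chr11:118354701-118355400 just inside the start of the gene. It held 71 and 287 in the second pair, against 18 and 70 in the first pair, and the pairs separated only narrowly (log2 difference 2.0, 0.68 without library 2 of the second pair and 3.24 without library 2 of the first). The strongest H3K27me3 region of Timp2 was chr11:118337851-118338650, also in the window of Cep295nl, with 31 and 34 in the second pair, against 229 and 112 in the first pair (log2 difference -2.36, deposited p of 4.12e-23, -1.75 without library 1 of the first pair).

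Timp3, whose protein stays bound to the matrix, lies inside Syn3, so its regions belong to both genes. Its G9a region chr10:86349501-86350050 held 0 and 36 in the second pair, against 145 and 81 in the first pair; the log2 difference of -2.58 was -1.62 without the library at 0 and -6.83 without the other library of the second pair. In H3K9me2 (chr10:86324701-86325350) Timp3 had 49 and 144 in the second pair, against 83 and 24 in the first pair, and in H3K27me3 (chr10:86301301-86301650) it had 5 and 41, against 25 and 113. Both of these had overlapping pairs, with log2 differences of 0.84 and -1.54, and the H3K9me2 difference changed sign to -0.12 without library 2 of the second pair. The H3K27me3 difference at Timp3 lay between -3.54 and -0.12 as each library was left out.

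Timp4, the inhibitor gene known for its high expression in the heart, lies inside Syn2. It was the 1 inhibitor with more second-pair than first-pair H3K27me3 regions, 4 and 1. For G9a it had 2 second-pair regions, both with overlapping pairs, and 1 first-pair region with separated pairs. The H3K27me3 region chr6:115247501-115250950 held 1091 and 810 in the second pair, against 543 and 529 in the first pair, with separated pairs and a log2 difference of 0.83. The G9a region chr6:115252001-115254200, over the start, had overlapping pairs with 296 and 493 in the second pair, against 81 and 407 in the first pair. Its log2 difference of 0.69 was -0.045 without library 1 of the first pair and 2.27 without library 2, so no direction can be drawn from it.

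The 250 bases before the start of Timp4 are printed because this G9a region covers them, 5′ to 3′ on the - strand of GRCm38.p6, at chr6:115252206-115252455. They hold no AP-1 or TATA match, and the Timp4 window held 2 CG pairs.
Timp4: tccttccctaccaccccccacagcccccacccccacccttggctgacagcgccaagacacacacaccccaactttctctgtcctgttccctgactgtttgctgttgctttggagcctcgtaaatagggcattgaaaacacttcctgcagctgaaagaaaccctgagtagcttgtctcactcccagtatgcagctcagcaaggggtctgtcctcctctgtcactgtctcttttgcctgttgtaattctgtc

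The aggrecanase-type genes Adamts1, Adamts4, Adamts5, Adamts8, Adamts9, Adamts15 and Adamts20 encode proteases, or close relatives of proteases, that cut aggrecan and versican. G9a gave 25 second-pair and 42 first-pair regions, H3K9me2 13 and 11, and H3K27me3 43 and 47. Behind these sums stood genes that leaned in opposite ways. Adamts4 had 5 second-pair and 0 first-pair G9a regions and 4 and 0 for H3K27me3.

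Adamts5, the other principal aggrecanase gene, leaned to the first pair for G9a and H3K27me3. It had 0 second-pair and 10 first-pair G9a regions and 7 and 12 for H3K27me3, and 2 and 1 for H3K9me2. The G9a region chr16:85857101-85857400 held 0 and 2 in the second pair, against 76 and 56 in the first pair, and no fold is given for values so near 0. In H3K27me3 the region chr16:85866351-85867700 held 115 and 57 in the second pair, against 284 and 339 in the first pair (log2 difference -1.84, deposited p of 6.04e-30, limma standard error 0.572). In H3K9me2 the region chr16:85879501-85880050 of Adamts5 held 44 and 3 in the second pair, against 70 and 143 in the first pair (log2 difference -2.13, between -4.75 and -1.26 with either second-pair library left out). All 3 antibodies thus had their strongest Adamts5 region higher in the first pair, in separated pairs.

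At Adamts9, in the H3K27me3 region chr6:92841351-92842300, the values were 7 and 2 in the second pair, against 257 and 338 in the first pair. The log2 difference was -5.76 with a deposited p of 1.75e-80, and limma gave -5.92 with a standard error of 1.2. It was -6.64 without library 1 of the second pair, and smaller in size without library 2 of that pair. With second-pair values this near 0, the size of the difference depends on the 1 added to each mean. For G9a, Adamts9 had 0 second-pair and 15 first-pair regions, 5 of these with separated pairs. More first-pair G9a regions were also found at 55% of all genes. The summed G9a values of Adamts9 were 208 and 1027 in the second pair, against 1369 and 1285 in the first pair. Library 1 of the second pair thus weighed heavily in that lean. For H3K9me2 Adamts9 had 5 second-pair and 1 first-pair region. Enzyme and product mark leaned apart there by count alone. Adamts20 had regions on both sides in every table, 27 and 27 for H3K27me3, and its strongest H3K9me2 region chr15:94334151-94335000 held 13 and 48 in the second pair, against 179 and 158 in the first pair (log2 difference -2.43, -3.60 without library 2 of the second pair and -1.79 without library 1).

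The procollagen N-proteinases Adamts2, Adamts3 and Adamts14 remove the amino-terminal propeptides of fibrillar procollagens. Adamts14 and Adamts3 leaned in opposite ways for G9a and H3K27me3, and both had more first-pair H3K9me2 regions. Adamts14 had 29 second-pair and 4 first-pair G9a regions, 3 and 4 for H3K9me2 and 24 and 8 for H3K27me3, and its G9a region chr10:61232401-61236850 held 1681 and 975 in the second pair, against 202 and 550 in the first pair. That was a log2 difference of 1.82 with a deposited p of 9.9e-121, and it lay between 1.27 and 2.71 as each library was left out. The H3K27me3 region over its promoter window held 2732 and 2485 in the second pair, against 1620 and 1755 in the first pair (log2 difference 0.63 at the start of Adamts14).

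Adamts3 had 0 second-pair and 13 first-pair G9a regions, 3 and 9 for H3K9me2 and 2 and 6 for H3K27me3. Its first-pair regions were among the strongest of all 3 tables. The G9a region chr5:89761651-89762550 held 5 and 56 in the second pair, against 253 and 140 in the first pair (log2 difference -2.65, -5.04 without library 2 of the second pair and -1.79 without library 1). The H3K9me2 region chr5:89821851-89822350 held 1 and 26 in the second pair, against 120 and 93 in the first pair (log2 difference -2.89, -5.75 without library 2 of the second pair and -1.99 without library 1). The H3K27me3 region chr5:89829051-89829750 held 2 and 24 in the second pair, against 182 and 150 in the first pair (log2 difference -3.58, -5.80 without library 2 of the second pair and -2.74 without library 1). Every pair was separated, and the value listed as library 1 of the second pair was the lowest in each table. Whether these are the same replicate is not stated. Over the Adamts3 promoter window a further H3K27me3 region held 26 and 66 in the second pair, against 183 and 220 in the first pair, a log2 difference of -2.11.

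Adamts2 stood between them, with 22 second-pair and 16 first-pair G9a regions and 14 and 20 for H3K27me3. Its strongest first-pair G9a region was chr11:50803051-50803950, with 2 and 78 in the second pair, against 275 and 143 in the first pair. The log2 difference of -2.36 was -1.41 without library 1 of the second pair and -6.13 without library 2.

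The remaining ADAMTS genes, Adamts6, Adamts7, Adamts10, Adamts12, Adamts13, Adamts16, Adamts17, Adamts18 and Adamts19, included the longest members and held the most regions. G9a gave 127 second-pair and 128 first-pair regions and H3K9me2 82 and 99, while H3K27me3 gave 241 and 166, which is 59.2% in the second pair. Adamts12 and Adamts17 led in number: Adamts12 had 78 second-pair and 55 first-pair H3K27me3 regions, and Adamts17 had 53 and 39 for G9a. At Adamts16 the H3K27me3 region chr13:70737951-70744950 held 2832 and 2650 in the second pair, against 1427 and 1423 in the first pair (log2 difference 0.94, deposited p of 1.1e-91). The libraries of each pair lay close together there and the pairs far apart. Adamts13 encodes the protease that trims von Willebrand factor, and its H3K27me3 region chr2:26980301-26986050 held 2540 and 2329 in the second pair, against 1010 and 1415 in the first pair (log2 difference 1.01, deposited p of 1.57e-90). The H3K27me3 region over the Adamts13 promoter window was higher in the second pair too, at 3040 and 2957, against 1852 and 1521 in the first pair.

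H3K9me2, the mark that G9a places, was best represented in these long genes. Adamts18 held the second-pair H3K9me2 region with the smallest deposited p of all members, chr8:113834701-113836400. It held 361 and 402 in the second pair, against 61 and 174 in the first pair (log2 difference 1.69, limma standard error 0.548). The difference was 2.63 without library 2 of the first pair, and below 1.69 without library 1 of the first pair. Adamts12 followed with chr15:11285901-11287550, with 411 and 231 in the second pair, against 59 and 180 in the first pair (log2 difference 1.42, between 0.83 and 2.42 as each library was left out). At Adamts17 the region chr7:67063751-67065000 held 252 and 232 in the second pair, against 86 and 73 in the first pair, a log2 difference of 1.59. Both pairs were narrow and far apart.

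Adamts6, a gene needed for normal heart development in mice, had its G9a and H3K9me2 regions of smallest deposited p at different places and in different directions. Its H3K9me2 region chr13:104388401-104389100 held 158 and 147 in the second pair, against 51 and 34 in the first pair, a log2 difference of 1.82. Its G9a region chr13:104298751-104300150 held 0 and 108 in the second pair, against 235 and 316 in the first pair (log2 difference -2.33, -1.34 without the library at 0 and -8.11 without the other one of that pair). An H3K9me2 region that overlaps this G9a region of Adamts6 was also higher in the first pair, with overlapping pairs of 111 and 36 in the second pair, against 156 and 90 in the first pair (log2 difference -0.74). Adamts6 had 0 second-pair and 15 first-pair G9a regions, 11 and 10 for H3K9me2, and none for H3K27me3.

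The lysyl oxidases Lox, Loxl1, Loxl2, Loxl3 and Loxl4 leaned to the second pair in the sum of their regions in all 3 tables. Their windows held 23 second-pair and 15 first-pair G9a regions, 7 and 1 for H3K9me2, and 24 and 13 for H3K27me3. Pairs were separated in 10 and 6 of these G9a regions, in 4 and 1 for H3K9me2, and in 15 and 7 for H3K27me3. Of the second-pair G9a regions 43.5% were thus separated, against 61.9% at all genes. More second-pair than first-pair regions stood at 3 of the 5 genes for G9a and at 4 for each mark. Over all genes these shares were 25.8% for G9a, 16.9% for H3K9me2 and 30% for H3K27me3. At Lox, the founding crosslinking enzyme, the H3K27me3 region chr18:52527001-52531850 spans the upper end of the gene and held 2995 and 2913 in the second pair, against 1902 and 2141 in the first pair. The pairs were separated, with a log2 difference of 0.55 (deposited p of 8.79e-39, limma standard error 0.185). Inside it, the G9a region chr18:52528701-52529400 of Lox did not separate the pairs, with 0 and 296 in the second pair, against 3 and 131 in the first pair. Its log2 difference of 1.13 ranged between -6.09 and 5.22 as each library was left out, and library 1 was near 0 in both pairs. The H3K9me2 region chr18:52514901-52515600 of Lox held 147 and 64 in the second pair, against 57 and 58 in the first pair (log2 difference 0.86, 0.15 without library 1 of the second pair and 1.34 without library 2).

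Loxl1 crosslinks elastin. Its H3K27me3 region chr9:58314551-58318500, in the flank, held 1286 and 1173 in the second pair, against 621 and 658 in the first pair, a log2 difference of 0.94 (deposited p of 1.27e-41). Its G9a region chr9:58302451-58303100 held 91 and 170 in the second pair, against 21 and 56 in the first pair (log2 difference 1.74, between 1.21 and 2.58 as each library was left out). Its H3K9me2 region chr9:58301051-58301550 held 62 and 108 in the second pair, against 61 and 24 in the first pair, with pairs separated by a single unit (log2 difference 0.98, between 0.47 and 1.78 as each library was left out). Loxl4 had 4 second-pair and 5 first-pair G9a regions, and 5 and 2 for H3K27me3. Loxl2, the family member that targets type IV collagen, had 1 region in all, a G9a region at chr14:69692701-69693400 with 1 and 49 in the second pair, against 195 and 114 in the first pair (log2 difference -2.58, -1.64 without library 1 of the second pair and -6.28 without library 2).

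**Figure D4:**
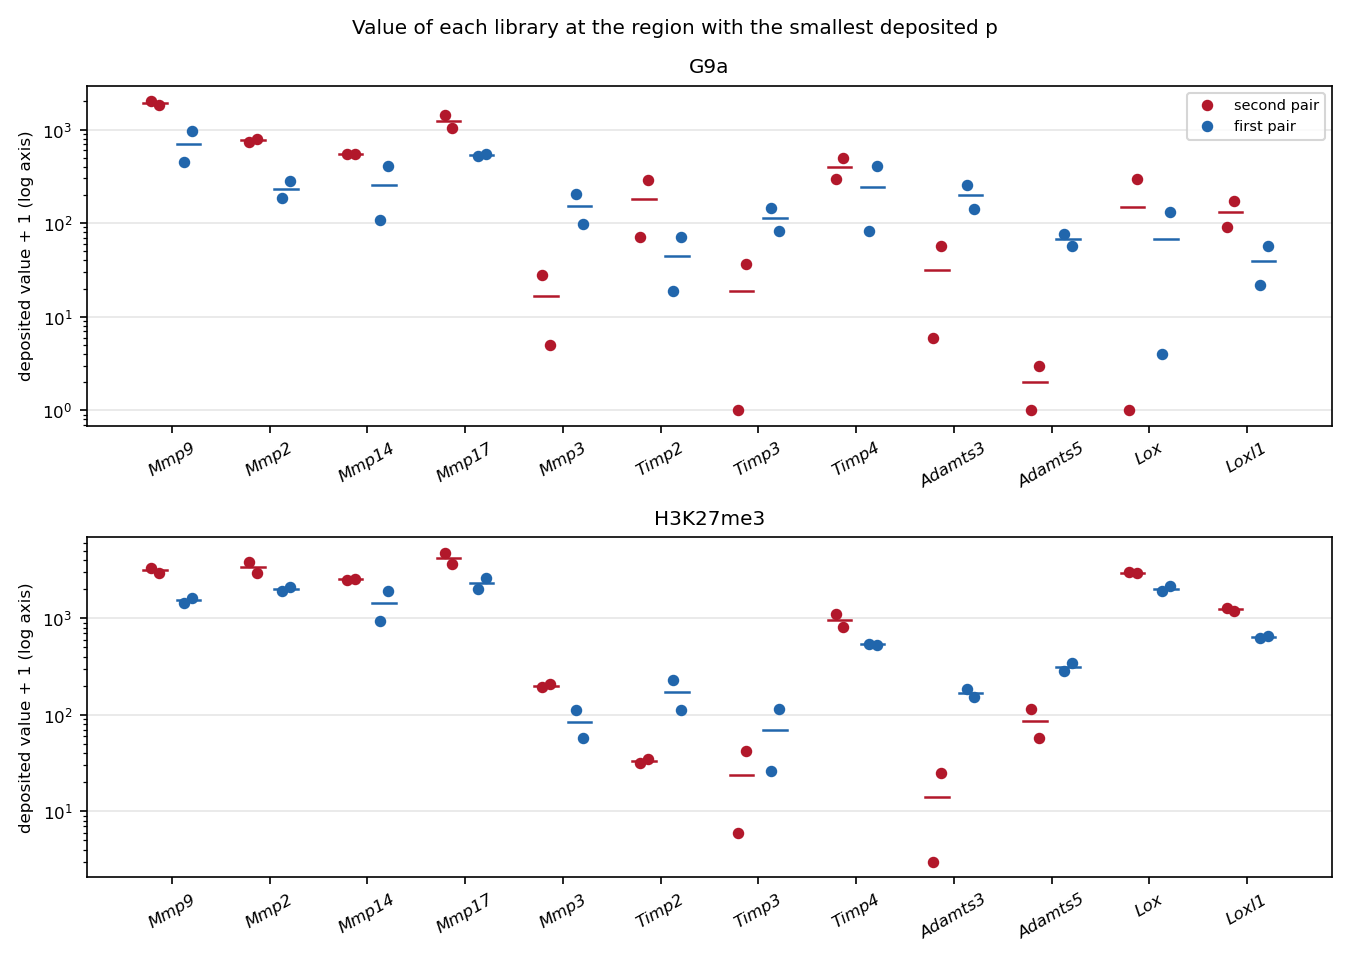
Deposited value plus 1 of each library (points, log axis) and the pair mean plus 1 (lines) at the G9a region (top) and H3K27me3 region (bottom) with the smallest deposited p of 12 genes, with the second pair in red to the left of the first pair in blue. For H3K27me3 the pairs separate at every gene shown except Timp3, and for G9a at every gene shown except Timp4 and Lox.

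Regions of the enzyme and of the marks coincided to a degree that was much like that of other genes. Of the second-pair G9a regions at the members, 59.6% were overlapped from 1 bp by a second-pair H3K27me3 region, against 58.9% at all genes, and 35.5% of the members' second-pair H3K27me3 regions were overlapped by a second-pair G9a region, against 35%. For first-pair G9a regions, 22.6% were overlapped by a first-pair H3K27me3 region, against 19.6% at all genes. H3K9me2 regions of the same direction overlapped 7.69% of second-pair and 11.3% of first-pair G9a regions at the members, against 8.70% and 9.38% at all genes. Of 421 overlapping pairs of a G9a and an H3K27me3 region, 199 were higher in the second pair for both and 68 in the first pair for both, while 74 and 80 were opposed. Across these 421 pairs the log2 differences had a Pearson r of 0.21 and a Spearman rho of 0.19. Across 102 pairs of G9a with H3K9me2 r was 0.26, and across 186 pairs of H3K9me2 with H3K27me3 it was 0.08. These are descriptions across regions that share libraries, and neighbouring regions of a gene are not independent.

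**Figure D5:**
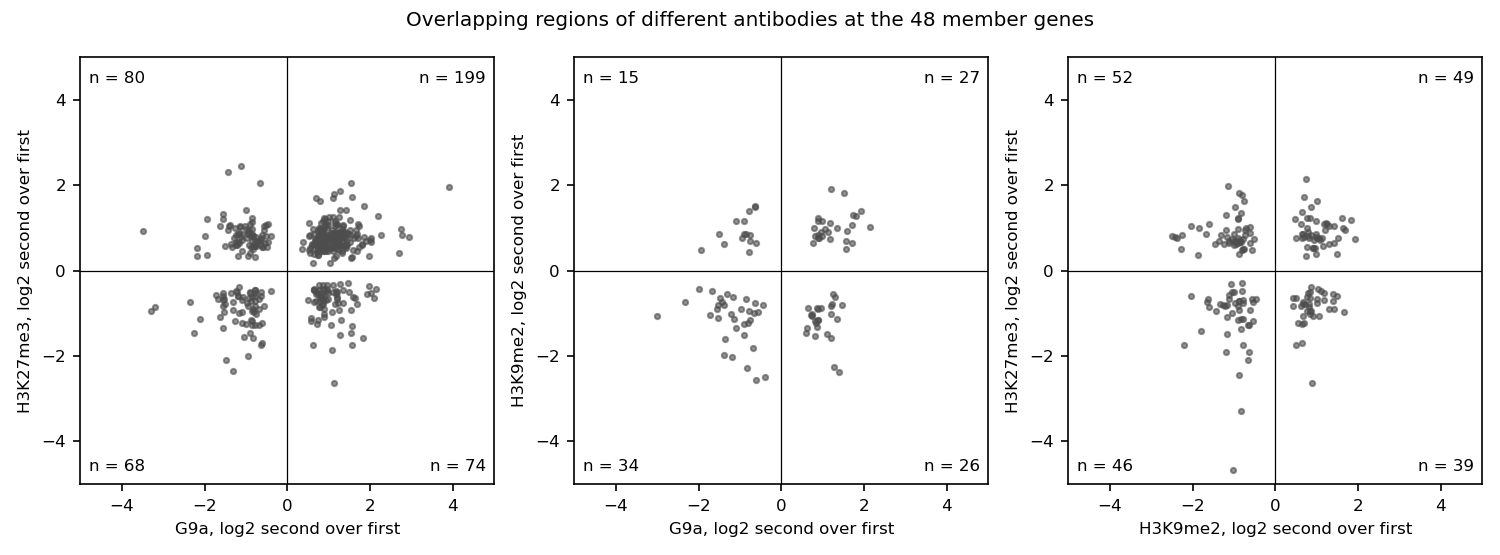
Log2 difference of the second over the first pair for overlapping regions of different antibodies at the 48 genes, 1 point per overlapping pair, with G9a against H3K27me3 on the left, G9a against H3K9me2 in the middle and H3K9me2 against H3K27me3 on the right. The numbers in the corners count points per quadrant; 199 of 421 points lie where G9a and H3K27me3 are both higher in the second pair.

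Beyond the enzymes, further genes of matrix remodelling and the proteins on which these enzymes act were listed as well. Of 43 further genes, such as procollagen processing enzymes, plasminogen activators and collagen hydroxylases, 33 (76.7%) had a second-pair and 35 (81.4%) a first-pair G9a region, beside 58.5% and 80.8% of all genes. For H3K9me2 they were 20 (46.5%) and 25 (58.1%), beside 40.6% and 50.7%, and for H3K27me3 24 (55.8%) and 30 (69.8%), beside 52.1% and 60.3%. The largest G9a difference by deposited p was at Adamtsl2, whose protein binds fibrillin, with 1575 and 765 in the second pair, against 161 and 324 in the first pair (log2 difference 2.27). Serpine2, a protease inhibitor gene, had an H3K9me2 region with 278 and 141 in the second pair, against 9 and 14 in the first pair (log2 difference 4.07). Adam19 had an H3K27me3 region with 10 and 3 in the second pair, against 183 and 210 in the first pair (log2 difference -4.72). Each of these 3 examples had separated pairs.

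Of 20 substrate genes, 17 (85%) had a second-pair and 16 (80%) a first-pair G9a region, 12 (60%) and 16 (80%) an H3K9me2 region, and 15 (75%) and 16 (80%) an H3K27me3 region, to be read beside the same shares of all genes. At Eln, the elastin gene and a target of lysyl oxidases, G9a was higher in the second pair, with 1650 and 842, against 260 and 382 in the first pair (log2 difference 1.95). Vwf, the substrate of the Adamts13 protease and also an endothelial marker, had second-pair regions for all 3 antibodies, and also a first-pair H3K9me2 region with 33 and 23 in the second pair, against 172 and 132 in the first pair. Its H3K27me3 region held 6758 and 5605 in the second pair, against 3358 and 2633 in the first pair (log2 difference 1.04), and its second-pair H3K9me2 region of smallest deposited p held 368 and 569 in the second pair, against 145 and 21 in the first pair (log2 difference 2.48). At Lama2, a laminin gene, an H3K27me3 region had 0 in both libraries of the second pair, against 138 and 178 in the first pair, and no fold is given. Fbn1 and Col3a1 had H3K27me3 regions higher in the first pair, with log2 differences of -1.86 and -1.45 at Fbn1 and Col3a1.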

How the data were processed

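Chromatin from cardiomyocyte-enriched cells of mice after 1 week of TAC or after sham surgery was immunoprecipitated for G9a, H3K9me2 or H3K27me3, with 2 biological replicates per antibody and condition; libraries were made with a NuGEN Ovation Ultralow V2 kit, per the labels' protocols. The submitters' processing notes name BWA 0.7.10-r789, SAMtools 1.1 and the build mm10 (GRCm38). How differential regions were called, values scaled or input corrected is not stated in the sources used here. For each antibody, the authors deposited 1 headerless table whose column 11 holds 4 whole-number values in 2 pairs and a -log10 p. These deposited values are of unknown scaling and were not treated as raw read counts, so depth per library is unknown. Every listed p is at most 0.01, and column 6 follows the higher pair in every line.

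Gene bodies and promoter windows came from RefSeq tables of GRCm38.p6, which give no exons here. Regions were assigned to a gene from 1 bp of overlap with its body plus 2500 bp. Log2 differences used pair means plus 1. limma 3.58.1 (R 4.3.3), with a trend, was fitted to log2(value + 1) of all regions of each table, with Benjamini-Hochberg adjustment and a threshold of 0.05, and was tested on simulated data. The limma p-values measure only the spread between these libraries, and what the deposited p-values measure is not stated in the sources used here. Values of all libraries are given for the 4 genes with the smallest deposited p per table and direction, and for 13 genes set by name at their smallest-p region. For 1 of those genes the region values are not reported here. The members, lists and named genes were chosen with earlier results of these data known. Alternatives comprised a stricter deposited p, separated regions only, other windows, a filter on low values, rescaling, another pseudocount, a fit without trend and leaving out each library.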

Additional observations from a re-analysis of the deposited data

How the results depend on the processing

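The counts of members with a listed region kept within 1.5 times of the reported ones under every alternative run, with 1 exception. At a deposited p of at most 1e-05, 17 instead of 29 members had a second-pair H3K9me2 region. With 48 members, the G9a and H3K27me3 counts could not rise by that factor, so keeping within it is a weak check. As each library was left out, members with a second-pair region numbered 36 to 42 for G9a, 27 to 31 for H3K9me2 and 36 for H3K27me3, and those with a first-pair region 40 to 43, 29 to 32 and 40 to 41. The limma count at these genes was 0 under every alternative. Counts of members with more second-pair than first-pair regions were run under 3 alternatives chosen after seeing the data and stayed within 1.5 times. Of 306 alternative values at the 51 named regions, 253 moved by less than the spread between libraries, 50 moved by more and 3 changed sign: G9a at Timp4 (-0.045 to 2.27 as each library was left out, lowest without library 1 of the first pair), G9a at Lox (-6.09 to 5.22, lowest without library 2 of the second pair) and H3K9me2 at Timp3 (-0.12 to 1.96, lowest without that library). The cause was not tested. The spread was that of the same region's own libraries, so a region whose libraries disagreed was allowed a larger move. Leaving out 1 library mostly shifts a difference by less than that spread for arithmetic reasons alone. The count of 253 is therefore no measure of how stable these regions are when a library is left out. No paired analysis was possible because the deposited values carry no replicate number, so the fit with the replicate number as a block was not run.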
